A study of Mus musculus with 36 samples.

Results

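Kinesins are microtubule motors, and their genes were followed here through the retina and 2 segments of the mouse optic nerve after crush and in experimental glaucoma. Members were the genes of the deposited count matrix whose symbol is Kif followed by a number and an optional letter a to c, or Kifc followed by a number from 1 to 5 and an optional letter a or b. The rule took 42 of the 55487 genes. By the best known role of each motor, 14 were listed as transport kinesins, 14 as mitotic, 7 as kinesins of cilia and 7 as others. Between 39 and 41 of the 42 passed the filter on low counts, depending on the fit. Kif2b, with 2 counts in all 36 libraries together, passed in none of them, and Kif12 was at 0 in 26 libraries and had at most 9 counts in the others.

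Most kinesins carry cargo toward the plus ends of microtubules, which point away from the cell body in axons. In a retinal ganglion cell, the neuron whose axon forms the optic nerve, they move vesicles, mitochondria, neurofilaments and RNA granules from the eye toward the brain. A separate group works in dividing cells, where its members build the spindle, move chromosomes and complete cytokinesis, and mature neurons have left the cell cycle. Messenger RNA of a motor can lie in the cell body or, for some motors, also in the axon, and a piece of nerve holds axons and glia but no ganglion cell bodies.

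All mice were C57BL/6, 2 to 4 months old, and no transgene or mutant allele is named for them. The 18 groups are the retina, the unmyelinated optic nerve at the nerve head (UON) and the first myelinated section behind it (MON), each from bilaterally naïve mice, from mice 3 days (3D) or 2 weeks (2W) after unilateral optic nerve crush, and from mice 3D, 2W or 6 weeks (6W) after unilateral injection of microbeads into the anterior chamber, which raises eye pressure (the glaucoma groups). The myelin transition zone between UON and MON was discarded. Each library held RNA of 2 mice of 1 sex, and each group had 1 female and 1 male pool (n = 2), so that sex and pool cannot be told apart, and the 3 tissues came from the same mice.

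The 36 libraries held 16.2 to 78.1 M counts. Levels are shown as CPM, counts scaled to library size with TMM factors over all libraries. The marker lists matched the dissections: summed photoreceptor markers were 50473 to 62671 CPM in retina and 8.52 to 332 CPM in UON, and oligodendrocyte markers were 47298 to 166483 CPM in MON, 3365 to 44251 CPM in UON and 75.8 to 136 CPM in retina. The male UON pool at crush 2W lay at the bottom of that UON range, and its female counterpart at 25263 CPM, within the naïve range of 22058 to 28906 CPM. Surface epithelium markers stood out in 2 MON glaucoma libraries, at up to 2213 CPM. Each injured group was tested against the naïve group of its tissue with edgeR, so comparisons within a tissue share their controls. Genes with an adjusted p under 0.05 and a change of over 1 on the log2 scale are termed called, and the percentage of all tested genes called in the same comparison is given beside the first count.

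Per length, Kif5a, one of the 3 heavy chains of conventional kinesin and the neuronal one best known for carrying neurofilaments and mitochondria, was the most abundant kinesin RNA of the naïve nerve. In FPKM, fragments scaled to transcript length and library size, it stood at 2058 ± 284 FPKM in UON and 1151 ± 391 FPKM in MON (mean ± SD, n = 2), and at 22.6 ± 0.976 FPKM in retina. This was 74.1% of the kinesin FPKM of the UON, 66.5% of that of the MON and 5.50% of that of the retina. Kif5b, the heavy chain found in most cell types, came next in both nerve segments, at 342 ± 82.0 FPKM in UON and 222 ± 10.3 FPKM in MON. The order below it in UON was Kif1a at 115 ± 29.2 FPKM, the carrier of synaptic vesicle precursors, its relative Kif1b at 57.3 ± 6.61 FPKM, and Kif21a at 51.0 ± 16.4 FPKM; the pools of Kif1b and Kif21a overlapped.

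The retina had another order. Kif1b led at 79.2 ± 0.198 FPKM, followed by Kif1a at 59.1 ± 0.0707 FPKM, Kif3a at 47.5 ± 4.51 FPKM and Kif5b at 34.8 ± 3.75 FPKM, and none of these 4 neighbours overlapped. Kif3a is a subunit of the heterotrimeric motor that also serves photoreceptor cilia. Kif21a, Kif5c and Kif5a followed at 25.5 ± 3.37 FPKM, 23.5 ± 1.73 FPKM and 22.6 ± 0.976 FPKM, with overlapping pools. The same first 7 places were found when gene counts were divided by the length of the leading transcript, whereas Kif22 and Kif13a, the next 2 by FPKM, ranked lower that way. Among mitotic kinesins, Kif4 was the highest in naïve UON at 9.15 ± 3.28 FPKM, and Kif22, the next, was at 0.534 FPKM.

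**Figure D1:**
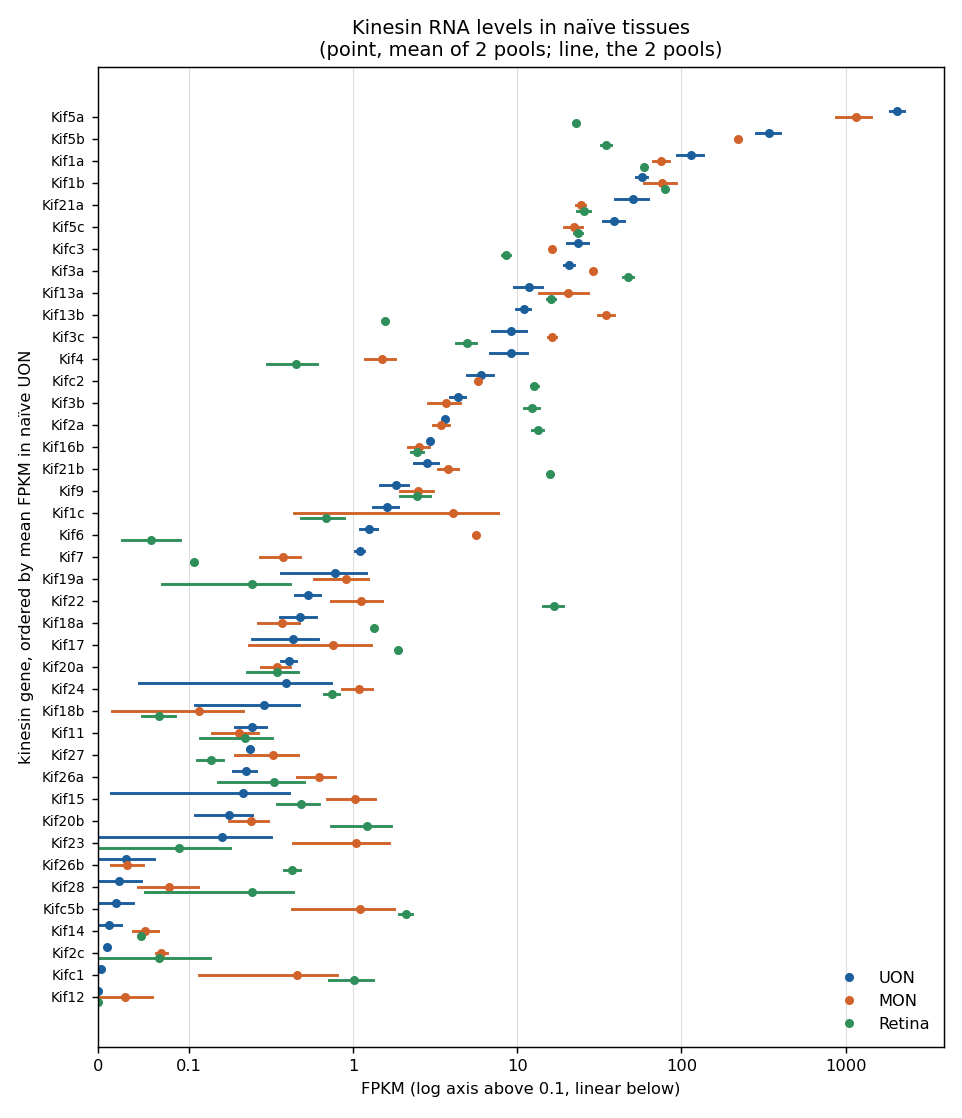
FPKM of the kinesin genes in the 3 naïve tissues, on a log axis above 0.1 and linear below, with genes ordered by their mean in UON; points are means of 2 pools and lines join the pools, and Kif2b, listed at 0, is not drawn. Kif5a stands at 2058 FPKM in UON against 22.6 FPKM in retina, while Kif3b, Kif21b and Kif22 are highest in retina.

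Against retina, 17 of the 39 kinesins tested were called in naïve UON, 11 higher and 6 lower (31.7% of all genes tested were called), and 13 in naïve MON, 9 higher and 4 lower (27.6%). Among transport kinesins, Kif5a differed most in UON (log2 fold change 6.91, SE 0.47, adjusted p = 5.74e-05), with 14619.6 CPM in the female pool and 18749 CPM in the male pool against 134 and 138 CPM in retina. In MON it was at 12605 and 6774 CPM (log2 fold change 6.12, SE 0.45, adjusted p = 9.98e-05). Kif5b and Kif13b, a motor that carries phosphoinositide and polarity cargo, were also higher in both segments, Kif13b by 4.01 in UON and 5.75 in MON on the log2 scale. The third conventional heavy chain, Kif5c, was called in UON at 1.14 (adjusted p = 0.0167) and not in MON at 0.35 (adjusted p = 0.395), as were Kif1a (1.28 and 0.69) and Kif21a (1.35 and 0.30). Calls were lost in UON without the male naïve UON pool, and DESeq2 called 19 in UON (37.7% of all genes) and 15 in MON (34%).

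Kinesins higher in retina than in both nerve segments were Kif21b, a neuronal motor that also limits microtubule growth, Kif3b, the partner of Kif3a, Kif2a, which shortens microtubules at growing neurites, and Kif22, which binds chromosome arms. Kif21b was -1.95 in UON and -1.59 in MON on the log2 scale over retina, and Kif22 was -4.44 and -2.94. Kif3a and Kif3b are subunits of 1 motor: Kif3a was -0.88 in UON over retina (adjusted p = 0.0114) and did not pass the limits, while Kif3b was called at -1.12 (adjusted p = 0.00515). Kif3c, which can take the place of Kif3b in neurons, went the other way, at 1.29 in UON and 2.25 in MON, both called. Median log2 fold changes of the transport list over retina were 1.17 in UON and 0.71 in MON, against -0.17 and 0.0031 for all genes tested. Of the cilium kinesins, Kif6 and Kif7, a regulator of Hedgehog signalling, were higher in both segments, Kif6 by 4.15 and 6.26, with Kif6 at no more than 17.7 CPM in a naïve library. Kif4 was also higher in both (4.72 and 2.16), as was Kifc3 (2.27 and 1.48), and Kif19a in MON (3.06). The largest fitted difference in UON was that of Kifc1, a minus-end motor of the spindle, at -6.97 (adjusted p = 0.0147), with 0.0224 and 0 CPM against 2.13 and 1.35 CPM in retina, and its near-identical copy Kifc5b was at -4.64 (adjusted p = 0.0245). Reads can be split between these copies, so both values are uncertain.

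Between the nerve segments, 3 of 39 kinesins were called (9.63% of all genes): Kif4 (log2 fold change 2.56, SE 0.47, adjusted p = 0.0174) and Kif21a (log2 fold change 1.05, SE 0.26, adjusted p = 0.0485) were higher in UON, and Kif13b (log2 fold change -1.74, SE 0.22, adjusted p = 0.0047) was higher in MON. Kif13b was at 114 and 99.5 CPM in UON and 409 and 294 CPM in MON, and Kif4 at 40.6 and 70.4 CPM and 11.2 and 6.01 CPM. No pool of one segment reached the range of the other for either gene. Kif5a differed by 0.78 (adjusted p = 0.254), with the female MON pool at 12605 CPM close to the female UON pool at 14619.6 CPM. The Kif21a call was lost without the male UON pool (0.71, adjusted p = 0.465) or the male MON pool (0.74, adjusted p = 0.157). More members were called without the female UON or the female MON pool, where the share of all genes was not read. DESeq2 called 9 (16.6% of all genes).

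Crush was followed by a near complete fall of Kif5a RNA in both nerve segments by 2W. In UON, Kif5a went from 14619.6 and 18749 CPM in the naïve female and male pools to 8980.0 and 4057 CPM at 3D and 109 and 49.4 CPM at 2W. In MON the naïve pools held 12605 and 6774 CPM, the 3D pools 4828 and 2179 CPM and the 2W pools 99.0 and 112 CPM. Every injured pool lay below every naïve pool of its segment, and at 2W the mean was 0.474% of the naïve mean in UON and 1.09% in MON. The fall passed the test at 2W in UON (log2 fold change -7.90, SE 0.62, adjusted p = 0.0236) and in MON (log2 fold change -6.36, SE 0.57, adjusted p = 0.0103), and it did so after leaving out any 1 naïve or crush 2W library. Without the male UON pool at 2W, which was low in oligodendrocyte markers, it was -7.49 (adjusted p = 0.0304). At 3D it was -1.51 in UON (adjusted p = 1) and -1.40 in MON (adjusted p = 0.142), not called by edgeR; DESeq2 called the MON value (-1.44, adjusted p = 9.81e-04). Kif5a lies on chr10:127225696-127263348 (GRCm38, minus strand), and the annotation shows no gene overlapping it. In bulk tissue, fewer axons or cells and less RNA in each cannot be told apart.

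At crush 2W, Kif5a was the 1 kinesin of 40 called in UON (0.0281% of all genes were called, all of them lower), and 1 of 4 called in MON (2.72%). The other 3 in MON were Kif5c (log2 fold change -2.04, SE 0.30, adjusted p = 0.0279) and Kif21a (log2 fold change -1.47, SE 0.27, adjusted p = 0.0401), both lower, and the mitotic Kif2c, higher. Kif5c pools moved from 229.8 and 156 CPM to 40.2 and 50.2 CPM in MON, and from 282 and 404 CPM to 58.5 and 83.3 CPM in UON, where its -2.29 was not called (adjusted p = 0.175). Kif21a in UON went from 296 and 496 CPM to 37.6 and 8.13 CPM, at -4.44 (adjusted p = 0.212). These groups do not overlap in either segment. DESeq2, the tool of the study, called 9 kinesins in UON (2.66% of all genes), namely Kif5a, Kif4, Kif21a, Kif1a, Kif13b, Kif5c, Kif5b and Kifc2 lower and Kif22 higher, and 10 in MON (8.93%). Without either naïve MON pool, Kif5a was the only kinesin called in MON at 2W. More members were called without either crush pool, where the share of all genes was not read. In UON, Kif4 was called beside Kif5a without the female crush pool, and Kif21a without the female naïve pool.

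Kif5a was the extreme of the transport list. The mean at crush 2W, as a percentage of the naïve mean, was 24.0% in UON and 28.1% in MON for Kif5b, and 20.7% and 23.4% for Kif5c. For Kif1a it was 16.4% in UON and 57.6% in MON, and for Kif13b 20.2% and 34.1%. The Kif1a pools in UON at 2W lay far apart, at 21.0 ± 14.2 FPKM (mean ± SD, n = 2). All UON means at 2W include the male pool that was low in oligodendrocyte markers, and its part in them was not tested. Of the heterotrimeric pair, Kif3a was at 109.5% and 82.3%, and Kif3b at 103% and 119%. Of 14 transport kinesins, 2 had a positive fold change in UON and 2 in MON, with medians of -1.06 and -0.78 against -0.09 and 0.05 for all genes. As a share of kinesin FPKM, Kif5a went from 74.1% in naïve UON to 59.0% at 3D and 4.14% at 2W, and in MON from 66.5% to 52.8% and 4.504%.

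**Figure D2:**
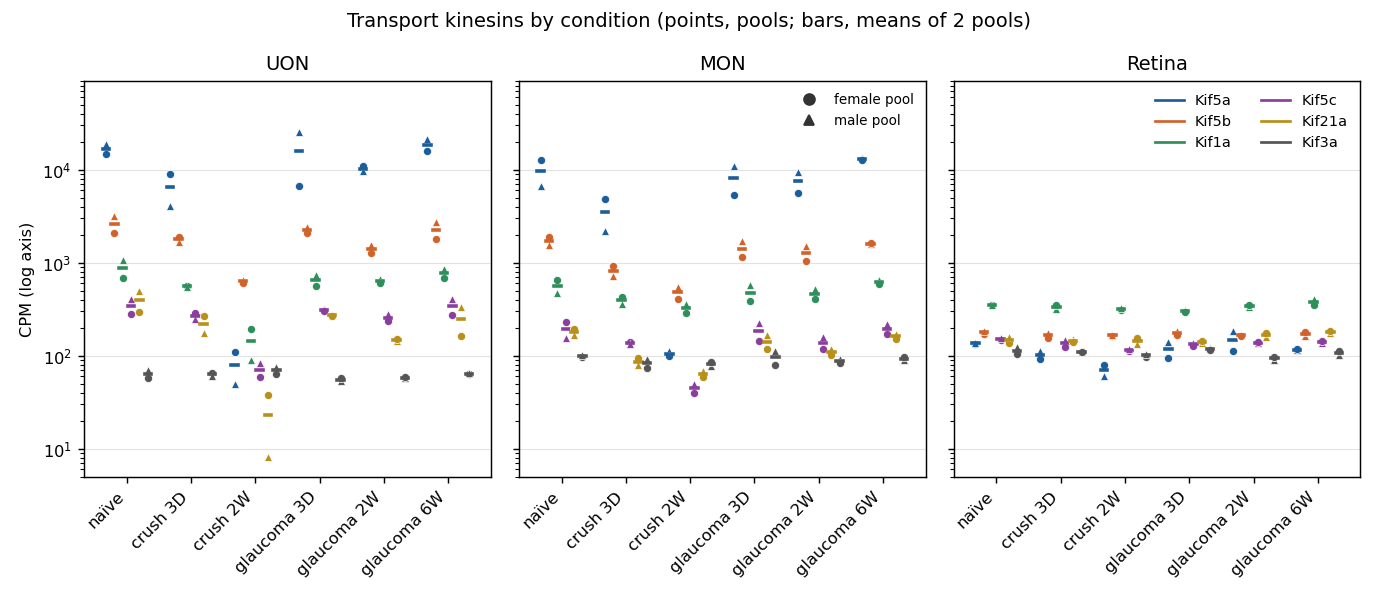
CPM (log axis) of 6 transport kinesins in the 3 tissues by condition; each point is 1 pool and each short bar the mean of 2 pools. In both nerve segments Kif5a at crush 2W lies at 49.4 to 112 CPM, within the range of its retinal levels of 60.7 to 183 CPM or just below it, while Kif3a stays between 53.6 and 123 CPM throughout.

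Direct contrasts set the injured groups against each other. From 3D to 2W after crush, Kif5a was called lower in MON (log2 fold change -4.96, SE 0.54, adjusted p = 0.0381), the 1 call among 40 kinesins (0.075% of all genes). No kinesin was called in UON by edgeR (0.00468%), where 18 members had an unadjusted p under 0.05; Kif5a stood at -6.39 there (adjusted p = 0.0507), and DESeq2 called 13 members (1.79%), all lower. Crush 2W against glaucoma 2W gave Kif5a as the 1 kinesin called in UON (log2 fold change -7.02, SE 0.80, adjusted p = 0.0203), beside 0.0418% of all genes. In MON it was also the 1 kinesin called (log2 fold change -6.14, SE 0.61, adjusted p = 0.00977; 0.0485% of all genes), and this call was lost without either crush pool (adjusted p = 0.051 and 0.115). The counts rose when single crush pools were left out, in MON from 3D to 2W and in both UON contrasts without the female 2W pool. The share of all genes called in those fits was not read. Between crush 2W and glaucoma 2W, DESeq2 called 10 in UON (2.58% of all genes) and 5 in MON (1.8%). At 3D, no kinesin was called between crush and glaucoma in UON by either tool (0% of all genes by edgeR, 2 members under an unadjusted p of 0.05).

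Whether the segments answered crush differently was tested as an interaction, UON response minus MON response. No kinesin of 41 was called at 2W (0% of all genes), with a lowest adjusted p of 0.154 and 6 members under an unadjusted p of 0.05. DESeq2 called 4 (3.6%), each more negative in UON: Kif4 (-6.29), Kif18b (-3.12), Kif21a (-2.71) and Kif1a (-1.81). Kif5a was -1.52 in that contrast (SE 0.69, adjusted p = 0.458). Members were called without either UON crush 2W pool, Kif4 alone without the male one, and the share of all genes in those fits was not read. Both segments of a pool came from the same mice, and with a term for each pool no kinesin was called either, with 6 under an unadjusted p of 0.05 and Kif4 at -6.64 having the lowest adjusted p, 0.0573 by edgeR. No kinesin was called in the interaction at crush 3D by either tool (0.012% of all genes by edgeR, 2 members under an unadjusted p of 0.05), nor in those for glaucoma at 3D, 2W and 6W (0% each, with 3, 1 and 1 members under 0.05).

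No kinesin passed the test in glaucoma, in UON, MON or retina, at 3D, 2W or 6W. Under an unadjusted p of 0.05 stood 10, 3 and 3 members in UON, 6, 3 and 1 in MON and 0, 2 and 0 in retina. The shares of all genes called were 0%, 0% and 0% in UON, 0%, 0% and 0% in MON, and 0.00429%, 0% and 0.00858% in retina. DESeq2 called 5 kinesins in UON at 3D (0.608% of all genes), 1 at 2W (0.303%) and 4 in MON at 3D (2.3%), all mitotic, and none in the other 6 comparisons. Kif5a at glaucoma 3D was 6770.2 CPM in the female pool and 25192 CPM in the male pool of UON, on both sides of the naïve pools. At 2W both UON pools, at 10947 and 9690.0 CPM, were below the naïve ones, and at 6W they were at 15830.0 and 21350.1 CPM. The 2W difference was -0.63 (SE 0.45, adjusted p = 1). In MON, Kif5a was at 5329 and 11084 CPM at 3D, 5573 and 9565 CPM at 2W and 12842 and 13346 CPM at 6W, with the female pools at 3D and 2W below both naïve pools and the male ones between them. Kif21a in UON at 2W was at 153 and 144 CPM against 296 and 496 CPM (-1.35, adjusted p = 1).

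In retina, which holds the ganglion cell bodies, no kinesin was called after crush either, at 3D (0.0221% of all genes) or at 2W (0.313%); 2 and 5 members had an unadjusted p under 0.05, and DESeq2 called none. Kif5a was 134 and 138 CPM in the naïve pools, 92.6 and 112 CPM at 3D and 79.97 and 60.7 CPM at 2W, the 3D and 2W pools all below both naïve pools (2W -0.99, SE 0.16, adjusted p = 0.0885). Kif5a was called at 2W without the female crush pool (-1.26, adjusted p = 0.0349), and by DESeq2 in crush 2W over glaucoma 2W (-1.05, adjusted p = 7.38e-04; 0.797% of all genes). Between injured retinas no kinesin was called by edgeR, from 3D to 2W after crush (0.0485%, 3 members under an unadjusted p of 0.05) or between crush and glaucoma at 3D (0.0081%, 2 members) and 2W (0.113%, 3 members, where Kif5a was called without the female glaucoma pool). Of 10 ganglion cell markers, 8 were called lower in retina at crush 2W against naïve, and their summed level went from 1127 to 1223 CPM to 143 to 166 CPM. The transport list as a whole was at 1673 to 1716 CPM against 1762 to 1899.9 CPM.

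RNAs of neurofilament and ganglion cell marker genes were also low in the same nerve libraries, and where in the tissue they lay was not tested. Nefl, the light neurofilament chain, was 110.2 and 151 CPM in naïve UON and 8.77 and 3.47 CPM at crush 2W, and in MON 122 and 68.2 CPM and 0.567 and 0.123 CPM. It was called in MON (-8.29, adjusted p = 0.00248), as were Nefh (-6.996) and Rbpms2 (-2.39), 3 of 7 ganglion cell markers tested there and 0 of 9 in UON. Summed ganglion cell markers were 288 to 436 CPM in naïve UON, 254 to 329 CPM at 3D and 34.3 to 56.0 CPM at 2W. Among 21 cargo adaptors and light chains, Mapk8ip2, a scaffold that links cargo to conventional kinesin, was called lower in UON at 2W (-5.21) and in MON at 3D (-1.44) and 2W (-3.78), and Klc1, a kinesin light chain, in MON at 2W (-1.77). Of 20 subunits and partners of dynein, the motor for the opposite direction, Dynll2 in MON at 2W was the only one called (-1.48), and the list's median was 0.04 in UON and -0.17 in MON. Summed oligodendrocyte markers also moved, from 124008 to 166483 CPM in naïve MON to 47298 to 60359.6 CPM at crush 2W, and their part in the kinesin values was not tested.

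In MON at crush 3D, 8 of 13 mitotic kinesins tested were called higher and none lower (4.26% of all genes tested were called, 3.61% higher): Kif2c (6.51, SE 0.56), Kif18b (5.70), Kif20a (5.02), Kif11 (4.74), Kif22 (4.35), Kif23 (3.59), Kif20b (3.49) and Kif18a (2.81), with adjusted p from 0.00663 to 0.0395. Kif2c, which depolymerises microtubules at kinetochores, went from 0.255 and 0.301 CPM to 21.6 and 24.7 CPM. Kif11, the motor that slides spindle poles apart, went from 1.80 and 0.721 CPM to 27.3 and 32.4 CPM, and Kif20a, a motor of the central spindle, from 1.31 and 1.26 CPM to 30.6 and 44.6 CPM. Both 3D pools were many times above both naïve pools for each of the 3. The list's median was 3.49 against -0.0049 for all genes, and all 13 values were positive. Members very low in naïve MON, such as Kif2c (0.0699 FPKM) and Kif18b (0.115 FPKM), had little room to fall. Both passed the filter on low counts only with injured pools, so their calls and the figures of the list carry that limit.

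The MON calls rested on the naïve pair. Without the naïve female pool all 8 calls were lost (log2 fold changes 2.89 to 7.22), and without the naïve male pool Kif2c, Kif18b, Kif11 and Kif22 stayed. Kif20b and Kif18a were lost without the male crush pool. More kinesins were called without the female crush pool, where the share of all genes was not read. DESeq2 called 15 kinesins in MON at crush 3D (12.3% of all genes), 9 mitotic ones higher, Kif4 among them, and Kif6, Kif13a, Kif5a, Kif1b, Kif21a and Kif5b lower.

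The promoters of these genes were read because their RNAs moved together. RefSeq promoter windows (GRCm38.p6, 250 bases before to 50 after the start) were at hand for 33 of the 42 members. Both strands were searched for TTTGAA, one form of the cell cycle genes homology region (CHR), an element known from promoters of late cell cycle genes, and for CCAAT, the box bound by NF-Y. TTTGAA was found in 11 of 13 mitotic kinesin promoters, 1 of 10 transport kinesin genes, where it lay in the second of 2 Kif1a windows, and 17.9% of all 32851 windows. Within 60 bases before to 30 after the start it was in 9 of the 13 mitotic ones and 4.85% of all windows. These 13 are not the 13 mitotic kinesins tested: they include Kif2b and lack Kif20a, which had no window. The near-identical copies Kifc1 and Kifc5b count as separate matches. CCAAT was in 9 of 13 mitotic, 3 of 10 transport and 37.4% of all. Kif18a, which was called, had no TTTGAA in its window, so the letters did not mark every called gene. Shown are 80 bases before to 25 from the start, 5′ to 3′, for 5 called genes with the element near the start, for Kif4, for Kif2c, whose only match lies outside the stretch shown, and for Kif5c as a transport kinesin. Among mitotic kinesins, the windows of Kif2c, Kif14 and Kif4 lay inside the annotated spans of their genes. Their starts are therefore not the outermost annotated ones. The starts used for Kif22, Kif15, Kifc1 and Kif2b also lay inside the spans, close to their ends. Positions and counts near the start depend on the start used. The Kif2c span, for example, reaches to chr4:117182639 on the minus strand. Capitals mark TTTGAA and CCAAT or their reverse complements TTCAAA and ATTGG. The windows are chr19:37376302-37376406 (Kif11, plus strand), chr7:127042396-127042500 (Kif22, minus strand), chr11:102925100-102925204 (Kif18b, minus strand), chr9:61946775-61946879 (Kif23, minus strand), chr19:34922278-34922382 (Kif20b, plus strand), chrX:100625985-100626089 (Kif4, plus strand), chr4:117178748-117178852 (Kif2c, minus strand) and chr2:49619206-49619310 (Kif5c, plus strand).
Kif11: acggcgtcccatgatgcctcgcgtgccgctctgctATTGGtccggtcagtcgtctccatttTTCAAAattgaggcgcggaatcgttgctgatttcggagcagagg
Kif22: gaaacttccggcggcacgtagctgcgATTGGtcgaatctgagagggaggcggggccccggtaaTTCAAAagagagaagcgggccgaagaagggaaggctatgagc
Kif18b: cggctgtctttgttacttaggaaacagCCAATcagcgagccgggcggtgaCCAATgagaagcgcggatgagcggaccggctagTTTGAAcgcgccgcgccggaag
Kif23: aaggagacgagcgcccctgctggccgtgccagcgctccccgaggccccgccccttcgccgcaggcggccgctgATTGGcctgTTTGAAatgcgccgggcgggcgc
Kif20b: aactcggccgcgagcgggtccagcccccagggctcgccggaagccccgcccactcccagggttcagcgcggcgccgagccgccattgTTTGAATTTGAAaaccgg
Kif4: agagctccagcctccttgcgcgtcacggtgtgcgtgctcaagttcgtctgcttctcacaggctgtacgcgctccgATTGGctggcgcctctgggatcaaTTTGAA
Kif2c: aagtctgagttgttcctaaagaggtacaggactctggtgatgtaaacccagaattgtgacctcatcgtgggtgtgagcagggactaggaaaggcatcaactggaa
Kif5c: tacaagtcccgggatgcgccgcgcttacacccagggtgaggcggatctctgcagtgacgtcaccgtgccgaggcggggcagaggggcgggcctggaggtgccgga

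With the start base counted as 1 and the base before it as -1, TTTGAA or its reverse complement began at -19 in Kif11, -17 in Kif22, 3 in Kif23, 4 in Kif18b, 8 and again 14 in Kif20b and 20 in Kif4. The match is a description of letters, and no binding was measured. Kif20a and Kif5b are left out here.

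In UON at crush 3D, edgeR called no gene at all (0%), and 10 kinesins had an unadjusted p under 0.05. Both 3D pools were nevertheless above both naïve pools by more than 1 on the log2 scale for 12 of 13 mitotic kinesins, Kif4 being the exception, a pattern met by 8.31% of all genes. Kif11 was 1.79 and 1.22 CPM in naïve UON and 23.9 and 21.3 CPM at 3D, Kif20a 1.64 and 0.645 CPM and 70.3 and 35.2 CPM, and Kif23, a motor of cytokinesis, 1.299 and 0 CPM and 24.1 and 12.3 CPM. DESeq2 called 9 kinesins, all mitotic and higher (1.01% of all genes were called, 0.832% higher): Kif2c, Kifc1, Kif23, Kif20a, Kif22, Kif15, Kif18b, Kif11 and Kif20b. The list's median was 4.38 against 0.0013 for all genes. Members very low in naïve UON, such as Kifc1 (0.00314 FPKM) and Kif2c (0.0102 FPKM), could only rise. Kifc1 passed the filter on low counts through the 3D pools. Kif2c, Kifc5b, Kif14, Kif23 and Kif15 did not reach it in both naïve pools and passed with injured pools. The 12 of 13 and the median include these members. At 2W, 6 of 13 fold changes over naïve were positive, with a median of -0.25. Kif11 was then at 0.449 and 2.25 CPM, and Kif22 at 5.60 and 5.12 CPM against 0.896 and 0.454 CPM (3.03, adjusted p = 0.219).

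In MON at 2W, Kif2c was still called (log2 fold change 3.00, SE 0.52, adjusted p = 0.0359), at 2.71 and 1.59 CPM, and 7 of 13 mitotic kinesins had both 2W pools above both naïve pools by more than 1 on the log2 scale (12.1% of all genes). Kif2c and Kif18b, very low in naïve MON, passed the filter with injured pools in this fit too. From 3D to 2W all 13 had negative fold changes in each nerve segment, with medians of -4.62 in UON and -2.72 in MON against -0.10 and -0.00089 for all genes. For Kifc1, at 0 in both UON pools at 2W and passing the filter through the 3D pools, the sign in UON was fixed in advance. The other members that passed the filter with injured pools limit this pattern too. None of them was called by edgeR in either segment, and DESeq2 called 8 in each (5.95% of all genes in MON). Summed mitotic kinesins were 20.7 to 26.1 CPM in naïve MON, 213 to 260.5 CPM at crush 3D and 24.0 to 55.1 CPM at 2W. In UON, where most of the naïve sum was Kif4, the sums were 53.6 to 75.5 CPM, 181 to 326 CPM and 18.2 to 19.8 CPM. Retina stayed between 30.5 and 38.7 CPM in all 12 libraries.

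**Figure D3:**
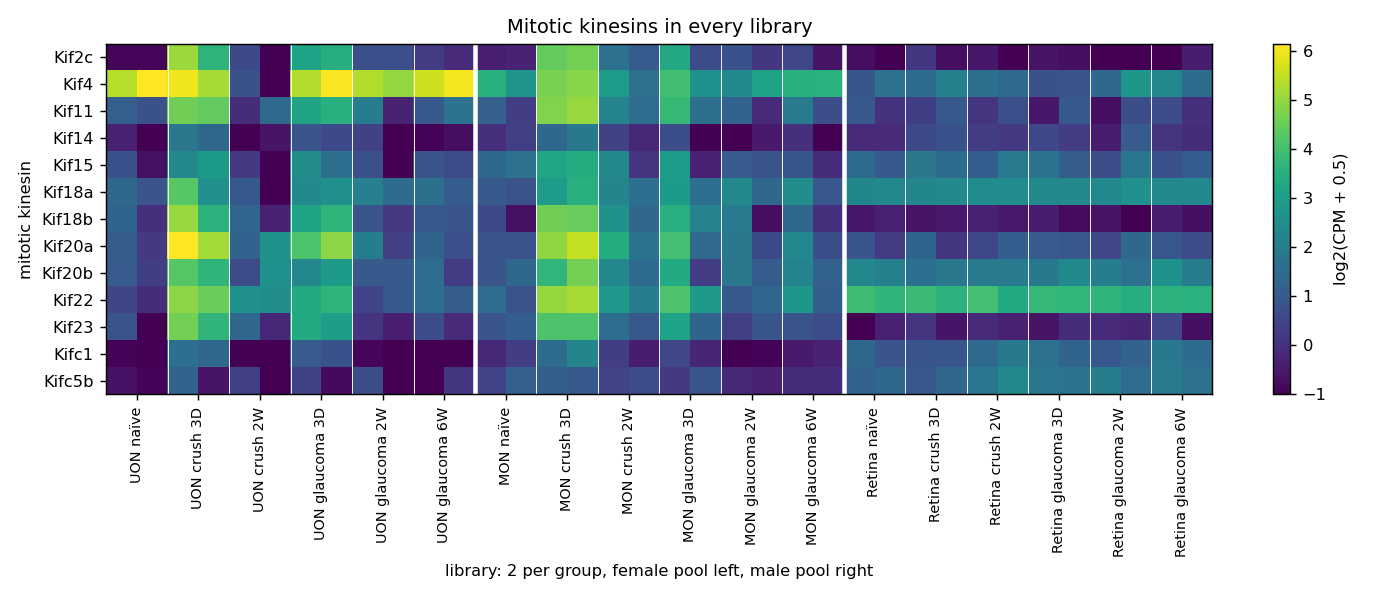
Level of 13 mitotic kinesins in all 36 libraries, as log2(CPM + 0.5), with the female pool of each group on the left and the male pool on the right; Kif2b is left out. Both crush 3D pools are bright in UON and MON, the MON glaucoma 3D pair is bright in the female pool only, and Kif4 alone is high in naïve UON, at 40.6 and 70.4 CPM.

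Glaucoma at 3D gave smaller values of the same sign in UON. Of 13 mitotic kinesins, 11 had both pools above both naïve pools by more than 1 on the log2 scale (8.29% of all genes), the median was 3.35, and none was called by edgeR, whereas DESeq2 called Kif2c, Kif23, Kif20a, Kif22 and Kif18b. Here too, members very low in naïve UON could only rise. Kifc1 and the members named with it above passed the filter with injured pools in this fit as well. Kif20a was 17.0 and 29.6 CPM and Kif11 8.52 and 11.1 CPM. In MON, 7 had non-overlapping pools in that sense (6.41% of all genes), but the 2 pools differed: Kif11 was 13.4 CPM in the female pool and 2.61 CPM in the male pool, Kif2c 9.44 and 1.04 CPM and Kif20a 15.5 and 2.21 CPM in the same order. DESeq2 called Kif18b, Kif2c, Kif22 and Kif11 there. The female pool was several times the male pool for each gene shown, and summed mitotic kinesins were 117 and 29.6 CPM. The same female pool held 2911 CPM of summed neutrophil and monocyte markers and the male pool 539.5 CPM, against 132 to 172 CPM in naïve MON, and the part of these cells was not tested. By 2W and 6W the sums were 39.7 to 59.2 CPM and 63.7 to 76.7 CPM in UON, and 19.3 to 26.4 CPM and 21.4 to 41.7 CPM in MON. Crush 3D over glaucoma 3D in MON gave a median of 2.17 for the 13, all positive, with no kinesin called by edgeR (0.0162% of all genes, 17 members under an unadjusted p of 0.05) and 6 by DESeq2 (3.34%). Of these 6, Kif20a, Kif2c, Kif11 and Kif22 were higher after crush, and the cilium kinesins Kif6 (-1.45) and Kif9 (-1.15) lower.

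Partners of these motors in division were higher beside them. Of 18 mitosis genes that are no kinesins, 17 were called higher in MON at crush 3D and 6 at 2W. The 3 largest at 3D were Plk1 (6.08), a mitotic kinase, Ndc80 (6.05), a kinetochore protein, and Cdk1 (6.01), the kinase that starts mitosis. Anln, named after its value was seen, was the exception (-0.62, adjusted p = 0.279), and oligodendrocytes also express it. Their median was 5.23 there and 4.33 in UON at 3D, where none was called and all 18 values were positive. Markers of other cell types in the same MON libraries were read too. Of 6 neutrophil and monocyte markers 3 were called higher at crush 3D (Ms4a7, Ccr2 and Lyz2), with a sum of 3793 to 7793 CPM, nearly all of it Lyz2, against 132 to 172 CPM in naïve MON, where S100a8, S100a9 and Ms4a7 were each at 0 in 1 pool. None of 8 microglial, 6 oligodendrocyte precursor, 7 fibroblast, 6 endothelial or 8 astrocyte markers was called. The sums in naïve and crush 3D MON were 1756 to 1829 CPM and 3500.2 to 4013 CPM for microglia, 1389 to 1611 CPM and 826 to 1008 CPM for precursors, and 123 to 134 CPM and 187 to 248 CPM for endothelium. Fibroblast sums, at 334 to 574 CPM and 547 to 967 CPM, and astrocyte sums, at 13274 to 18858 CPM and 7556 to 14433 CPM, overlapped, while oligodendrocyte sums were 124008 to 166483 CPM and 73343 to 87571 CPM. In UON at 3D the neutrophil and monocyte sum was 549 to 2882 CPM against 284 to 325 CPM, with S100a8 and S100a9 at 0 in both naïve pools. Which cells held the mitotic kinesin RNA was not tested.

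Kif4, listed as mitotic for its role on chromosome arms and in the midzone, followed another pattern in UON. It was 40.6 and 70.4 CPM in the naïve female and male pools, 62.8 and 36.3 CPM at crush 3D and 1.20 and 0 CPM at 2W, where the female value stands for 56 counts. The 3D pools overlapped the naïve ones, and the 2W pools were far below them (-7.14, SE 1.41, adjusted p = 0.349 by edgeR, and -7.70, adjusted p = 0.0391 by DESeq2, which called it). In glaucoma UON libraries it stayed between 31.0 and 68.1 CPM. In MON it was 11.2 and 6.01 CPM naïve, 25.7 and 28.8 CPM at 3D and 7.25 and 2.73 CPM at 2W, higher at 3D in both pools, which edgeR did not call (1.87, adjusted p = 0.0658). Per length, naïve UON held 9.15 ± 3.28 FPKM of Kif4 and 0.243 ± 0.0728 FPKM of Kif11.

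Kif4 lies on chrX:100625737-100727214 (GRCm38, plus strand), and its span overlaps that of Pdzd11 on the other strand. Counting is not stated to use strand, so reads in the shared stretch cannot be told apart. Pdzd11 was 73.2 and 56.5 CPM in naïve UON and 101 and 155 CPM at crush 2W, opposite in direction to Kif4 (0.94, adjusted p = 0.511). The full-length coding transcript Kif4-201 carried at least 97.5% of Kif4 transcript counts in UON libraries with any. Kif20a overlaps Cdc23, Kif18a overlaps Mettl15 and Kif5b 2 predicted genes on the opposite strand in the same annotation, and Kifc1 and Kifc5b are near-identical copies, so their split is uncertain.

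**Figure D4:**
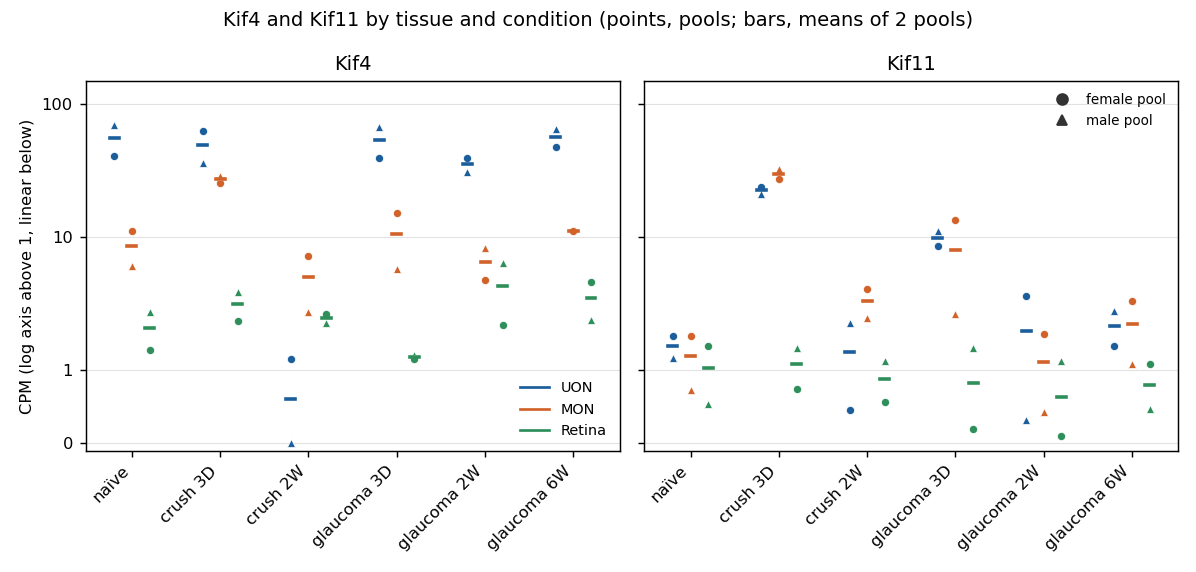
CPM of Kif4 (left) and Kif11 (right) by condition in UON, MON and retina, on a log axis above 1 and linear below; points are pools and short bars means of 2 pools. Kif4 in UON is high in naïve and glaucoma pools and at 1.20 and 0 CPM at crush 2W, while Kif11 is low in naïve nerve and peaks at crush 3D.

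Transcript estimates gave the forms behind the gene counts. Kif5a-201 held 99.8% of Kif5a transcript counts over all libraries, Kif5b-201 99.1% and Kif5c-201 99.8%, each at least 90.6% in every library. Kif1b differed by tissue: Kif1b-202 held 38.2 to 79.2% in MON libraries and 0 to 11.1% in retina, ranges that do not overlap, and 0 to 67.7% in UON, although 84.8% of its gene counts could be matched to annotated transcripts. Kif1a and Kif21a were split among several transcripts, with 33.6% and 33.0% of counts over all libraries in the leading one.

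The 7 cilium kinesins and the 7 others had no call in any of the 15 comparisons of an injured group with naïve. Kif6, a kinesin of motile cilia, was 17.7 and 12.4 CPM in naïve MON and 6.48 and 2.72 CPM at 3D (-1.69, adjusted p = 0.104), and it was called by DESeq2 there (-1.73, adjusted p = 0.0123). The cilium list's median there was -0.96, and it was -0.09 in UON. Kifc2, a minus-end motor of neurons, was 27.9 and 20.3 CPM in naïve UON and 10.5 and 3.59 CPM at crush 2W (-1.94, adjusted p = 0.464), called by DESeq2 in UON. Kif2a stayed between 16.1 and 30.5 CPM in all UON libraries. Kif26b and Kif28 were at or under 2.58 CPM in every UON library, and Kif26b was at 0 in both crush 2W pools and 1 naïve pool there.

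**Figure D5:**
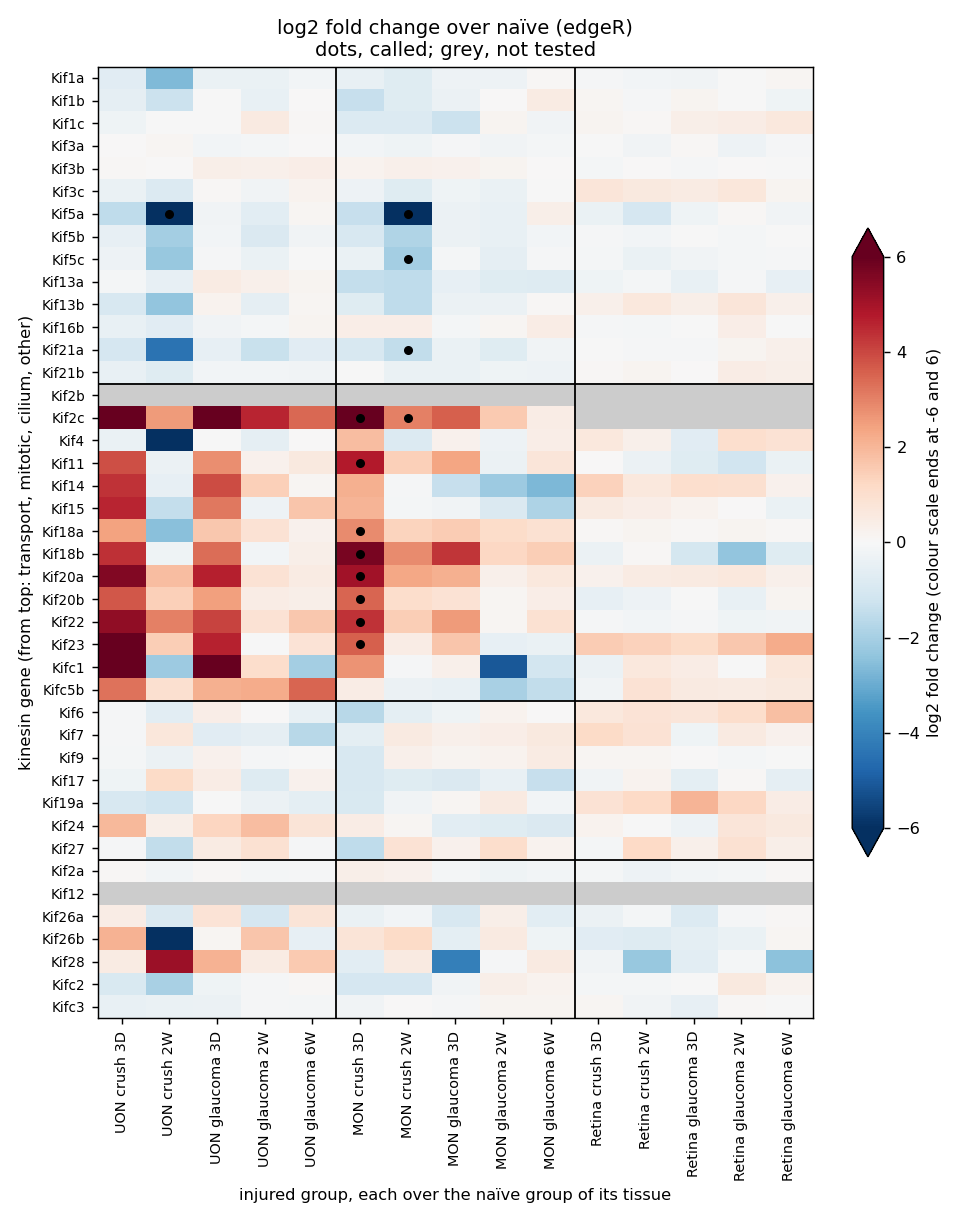
log2 fold change of the 42 kinesins (rows, by role) in the 15 comparisons with naïve (columns, by tissue); colours end at -6 and 6, dots mark calls, and grey marks genes that were not tested. The 13 dots are Kif5a, Kif5c and Kif21a lower and Kif2c higher in MON at crush 2W, Kif5a lower in UON at crush 2W, and 8 mitotic kinesins higher in MON at crush 3D; glaucoma and retina hold none.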

How the data were processed

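The 36 bulk RNA-seq libraries were made from total RNA of retina, UON and MON with an ultra-low input kit. The authors aligned the paired 150-base reads to GRCm38 with HISAT2 2.2.1 and estimated transcripts with StringTie 1.3.0 and GENCODE annotation M25. The deposited gene and transcript tables hold expected counts derived from StringTie coverage, so that 1 count is not exactly 1 read, and deposited FPKM values per library. A few FPKM entries outside the kinesins were below 0.

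Counts were tested as deposited, in whole numbers, with edgeR 4.0.16 in R 4.3.3 (TMM, low counts removed by filterByExpr, minimum 10 and total 15, quasi-likelihood test, Benjamini-Hochberg adjustment over all tested genes). Each model held the condition (or tissue) and the sex of the pool, which the labels give and which pairs the pools across groups. Crush and glaucoma were fitted per tissue with the naïve pools, naïve tissues together, and interactions over both nerve segments. Residual degrees of freedom were 2 to 7. In the naïve fit the sex term also marks the pool of mice, and the interactions were repeated with a term for each pool (3 and 4 residual degrees of freedom), an alternative chosen after seeing the data. Calls needed an adjusted p under 0.05 and a log2 change of over 1 in size. DESeq2 1.42.0, the tool the study used, was run as an alternative with the same terms. In simulated data for UON crush 3D, with 200 of 21368 genes changed by 3 on the log2 scale, edgeR recovered 168 with 13 false calls, and DESeq2 182 with 118. The changed genes were drawn only from well counted ones, and the median coefficient of variation was 0.485. These numbers therefore do not carry over to kinesins with few counts. In the real comparison edgeR called no gene, and the common coefficient of variation of that fit was 0.654. For well counted kinesins, the simulated numbers thus do not show how many real changes would be found. The p-values measure the spread between pools, with 2 mice in each.

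All 42 kinesins are accounted for, and those with the largest fold change among the called members of a comparison are given with their values. The kinesins and the comparison lists (markers, cargo adaptors, dynein subunits, mitosis genes) were chosen with earlier results of these data known. Promoter windows were read from RefSeq, GRCm38.p6, gene spans and overlaps from the deposited values per library, and transcript names and lengths from GENCODE M21 on GRCm38.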

Additional observations from a re-analysis of the deposited data

How the results depend on the processing

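The counts of called kinesins depended on the tool and on single pools. DESeq2 called 9 members between naïve UON and naïve MON (edgeR 3), 9 in UON at crush 3D, 9 in UON at crush 2W, 15 in MON at crush 3D and 10 in MON at crush 2W. It called 5 in UON and 4 in MON at glaucoma 3D, and 1 in UON at glaucoma 2W. From 3D to 2W after crush it called 13 in UON and 10 in MON, between crush and glaucoma 10 in UON and 5 in MON at 2W, 6 in MON at 3D and 1 in retina at 2W, and 4 in the interaction at crush 2W. Without the filter on low counts, edgeR called 4 in UON at crush 3D, 4 in UON at crush 2W, 13 in MON at crush 3D, 10 in MON at crush 2W and 2 in UON at glaucoma 3D. The same setting gave 3 in UON and 11 in MON from 3D to 2W, 6 in UON and 3 in MON between crush and glaucoma at 2W, 3 in MON at 3D, 1 in retina at 2W, and 1 and 4 in the interactions at crush 3D and 2W. With all 12 libraries of a tissue in 1 fit, UON gave 1 at crush 3D, 3 at crush 2W and 1 from 3D to 2W. With all 36 libraries, the interaction at crush 2W gave 3. Without the replicate block (the sex term that pairs the pools), 5 members were called between the naïve nerve segments and 6 from 3D to 2W in MON, and no other count moved by over 1.5 times. A pool replicate block in the 5 interactions, chosen after seeing the data, left 0 members called in each. With RLE scaling every count stayed within 1.5 times of that with TMM. For settings other than DESeq2, the share of all genes called was not set beside these counts. They show how far the calls depend on the setting and are not read as results about kinesins.

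Over all comparisons, DESeq2 kept 49 of the 49 calls and added 96, RLE scaling kept 49 and added 1, the fit without a filter kept 48 and added 53, and the fit without the sex term kept 49 and added 9. With all 12 libraries of a tissue in 1 fit, 12 calls were kept, 2 lost and 10 added among the comparisons refitted. With all 36 libraries, 30 were kept, 3 lost and 5 added. Calls were also lost when single pools were left out. No fold change of a called kinesin turned its sign under any of these. When 1 pool was left out, the count ranged from 0 to 13 for MON crush 3D, 1 to 10 for MON crush 2W, 1 to 2 for UON crush 2W and 0 to 1 for retina crush 2W. From 3D to 2W it ranged from 0 to 6 in UON and 4 to 12 in MON. Between crush and glaucoma it was 1 to 9 in UON and 0 to 1 in MON and in retina at 2W, and 0 to 2 in MON at 3D. Among naïve tissues it was 3 to 8 for UON against MON, 11 to 20 for UON against retina and 12 to 13 for MON against retina, and the interaction at crush 2W gave 0 to 8. A pool left alone in its group was assumed to vary like the others. The share of all genes called in the fits without 1 pool was not set beside these counts. They are not read as results about kinesins. The causes of these differences were not tested.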
